A study of Mus musculus with 2 samples.

Results

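Chemokines and their receptors were compared between teratomas of E14 cells, a mouse ESC line, and teratomas of E14-Sox2TA/WT cells. The members were the protein-coding genes whose symbols begin with Ccl, Cxcl, Ccr or Cxcr followed by a number, together with Cx3cl1, Cx3cr1, Xcl1, Xcr1 and Ackr3. They came to 56 of the 45777 genes listed and comprised 23 CC ligands, 12 CXC ligands, 2 other ligands and 19 receptors. E14-Sox2TA/WT cells carry Sox2 T258A, in which the threonine at residue 258 becomes alanine, on 1 allele, and were expanded from single cells after CRISPR/Cas9 editing. E14 cells carry wild-type Sox2. Both lines were grown subcutaneously in BALB/c-nu mice, 3 per group, for 14 days. These athymic hosts are short of T cells and keep macrophages, neutrophils and other innate cells, so that a teratoma holds cells of the graft and of the host. Each group had 1 RNA-seq library, and the sources do not state how many teratomas entered it, so no difference given here has a replicate check and no p-value was computed.

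Chemokines are small secreted proteins that bind G protein-coupled receptors on moving cells. Ligands of the inflammatory type are made by macrophages, stromal cells and epithelia after stimuli such as interleukin-1 and tumour necrosis factor, and they draw monocytes, neutrophils and eosinophils. Ligands of the homeostatic type, among them Cxcl12, are made steadily and guide stem cells, neurons and vessels during development. Ackr3 is an atypical receptor that takes up Cxcl12 without G protein signaling.

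The families are named after the first cysteines of the mature protein, which lie side by side in CC ligands, 1 residue apart in CXC ligands and 3 residues apart in Cx3cl1, whereas Xcl1 has a single one. The coding stretches around these cysteines are shown for the ligand with the highest TPM of each family in E14-Sox2TA/WT teratomas, for the CC ligands with the largest log2 ratio in each direction and for Xcl1, with the cysteine codons in capitals. They were read 5′ to 3′ from GENCODE transcripts on GRCm38.
Ccl8: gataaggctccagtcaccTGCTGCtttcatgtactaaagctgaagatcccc
Ccl6: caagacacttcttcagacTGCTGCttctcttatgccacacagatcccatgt
Ccl27a: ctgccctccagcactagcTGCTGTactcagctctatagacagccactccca
Cxcl12: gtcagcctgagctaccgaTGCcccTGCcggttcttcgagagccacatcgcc
Cx3cl1: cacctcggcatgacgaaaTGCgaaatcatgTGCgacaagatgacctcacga
Xcl1: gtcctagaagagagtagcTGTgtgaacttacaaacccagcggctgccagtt
The stretch of Ccl8 lies on the plus strand and joins exons 1 and 2, between positions 82115312 and 82116088 of chromosome 11. Those of Cxcl12 (chr6:117171490-117171540) and Cx3cl1 (chr8:94778033-94778083) lie in exon 2 on the plus strand. On the minus strand, Ccl6 (chr11:83589359-83589409) is read from exon 3, Ccl27a (chr4:41769918-41769968) from exon 4 and Xcl1 (chr1:164932945-164932995) from exon 2.

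The E14 library held 50529171 reads on genes and the E14-Sox2TA/WT library 49030281. Sox2, the mutated gene, had a TPM of 246 in E14 and 130 in E14-Sox2TA/WT, and gene counts do not tell its alleles apart. The E14 library listed 306 genes at 0 that had at least 50 reads in the other library, against 22 genes the other way round, so a count of 0 in E14 was common among low genes. Mitochondrial genes held 5.17% of TPM in E14 and 9.70% in E14-Sox2TA/WT, and the part of this difference in the member values was not tested. Levels are given as TPM, which is scaled by transcript length and can be compared between genes. A member was called when its TPM differed more than 2-fold and either library reached a TPM of 10, which is the rule of the study's methods. Since few chemokine genes reach that level, the calls at a TPM of at least 1 are given beside it. Over all genes, the rule at a TPM of 10 called 1253 higher and 2167 lower. Both counts are larger than those the study reports for its teratomas, so its own calls may differ from those here. The range after a fold is its 95% interval, taken from the read counts by the Clopper-Pearson method and carried to the TPM ratio, and it covers counting error only. Where E14 had 0 reads, 3 reads stand in for the 0 of that library and counts are scaled by library total. Such a fold leaves out the counting error of the E14-Sox2TA/WT count, so it is only an approximate lower bound. In bulk tissue, fewer cells of a type and less RNA per cell cannot be told apart.

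Of the 28 ligands that reached a TPM of 1, 22 were called higher in E14-Sox2TA/WT teratomas and 3 lower. Only 6 receptors reached that level, and 0 of them were called lower, against 18.9% of all genes. So few cannot show a difference in share, and by log2 ratio 3 of the 6 lay above 0 and 3 below. At a TPM of at least 10, 18 members could be called, of which 10 were higher, against 10.8% of all 11578 genes at that level, and 2 were lower, against 18.7% of all genes. At a TPM of at least 1, 24 of 34 members were higher, or 70.6%, against 19.3% of all 18558 genes and 17.0% of protein-coding genes at that level, and 3 were lower, against 18.9% of all genes. With the members at 0 reads in E14 left out, 18 of 28 were higher, against 17.3% of genes with reads in both libraries. A gene can pass the TPM filter through 1 library alone, which favours a call toward that library, for members as for all genes. Of the 10 higher members, only Ccl8 and Cxcl12 reached a TPM of 10 in E14. Among the 18, Ccl4, Ccl5, Cxcl5, Cxcl10 and Cxcl15 lay below a TPM of 1 in E14. On the log2 scale, after adding 1 to every TPM, the median difference was 1.30 over the 34 members and -0.06 over all 18558 genes. The other 22 members stayed below a TPM of 1 in both libraries, and 5 of them, Ccl26, Xcl1, Ccr6, Ccr8 and Ccr10, had 0 reads in both.

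**Figure D1:**
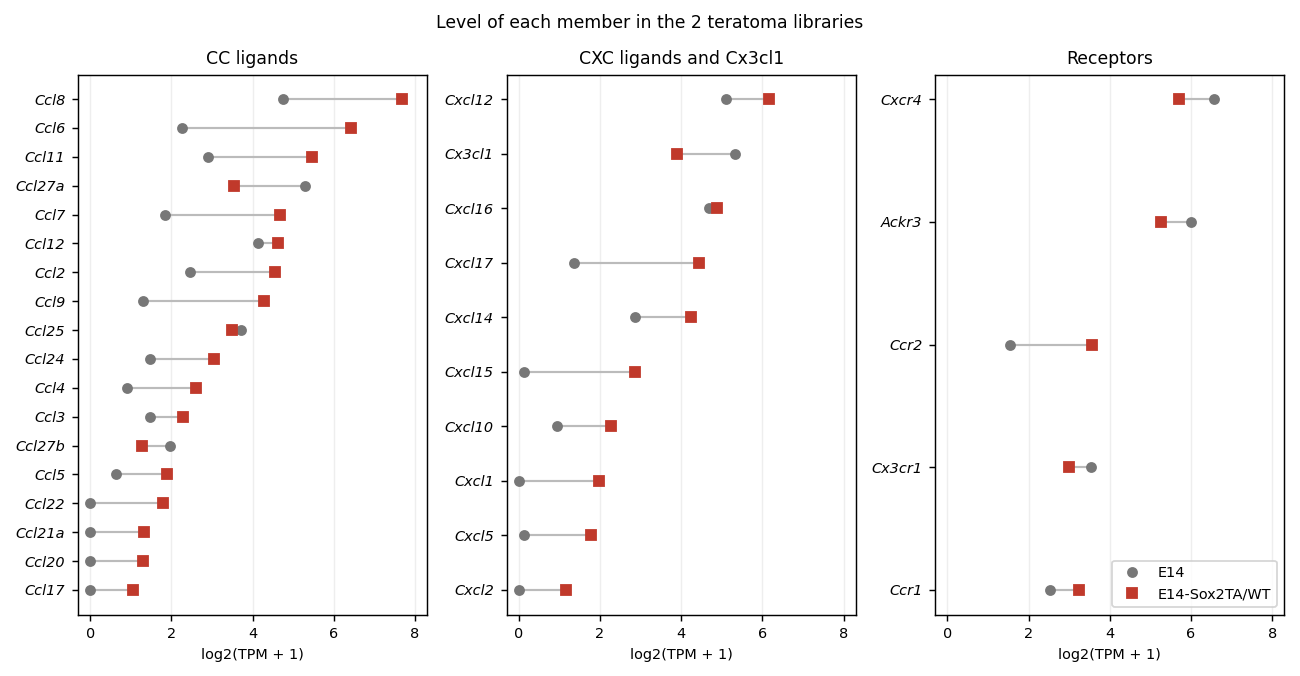
Levels of 33 members that reached a TPM of 1 in either library, as log2(TPM + 1), in E14 (grey circles) and E14-Sox2TA/WT teratomas (red squares). Ligands lie mostly to the right in the E14-Sox2TA/WT library, up to Ccl8 at a TPM of 205, whereas Cxcr4, Ackr3, Cx3cr1, Cx3cl1, Ccl25, Ccl27a and Ccl27b lie to the left.

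The CC ligands together had a summed TPM of 119.8 in E14 and 471 in E14-Sox2TA/WT teratomas, 3.93-fold higher. Of the 18 that reached a TPM of 1, 14 were higher and 2 lower, with a median log2 ratio of 1.44. The order of the ligands also differed. In E14 the 3 highest ligands were Cx3cl1, Ccl27a and Cxcl12, which held 48.9% of all ligand TPM, and in E14-Sox2TA/WT they were Ccl8, Ccl6 and Cxcl12, which held 56.2%.

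On chromosome 11, a row of CC ligands from position 82035577 to 82179812 of GRCm38 includes ligands for monocytes and eosinophils. Its summed TPM was 56.1 in E14 and 319 in E14-Sox2TA/WT. Ccl8, a ligand made by macrophages, had 320 reads (TPM 26.0) in E14 and 2816 reads (TPM 205) in E14-Sox2TA/WT, 7.88-fold higher (7.02 to 8.88). It made up 11.5% of ligand TPM in E14 and 32.0% in E14-Sox2TA/WT, and moved from the fourth to the first rank. Ccl2, the main ligand of Ccr2 on inflammatory monocytes, had 87 reads (TPM 4.47) and 483 reads (TPM 22.3), 4.98-fold higher (3.95 to 6.33). Ccl7, which also binds Ccr2, went from 51 to 532 reads and from a TPM of 2.60 to 24.7, 9.49-fold higher (7.11 to 12.9). Ccl8, Ccl2 and Ccl7 were thus past 2-fold over their whole interval. Ccl11, known as eotaxin, had 169 reads (TPM 6.51) and 1236 reads (TPM 42.9), 6.58-fold higher (5.60 to 7.78). Ccl12, a further Ccr2 ligand between Ccl11 and Ccl8, did not pass the rule. It had 213 reads (TPM 16.5) in E14 and 340 (TPM 23.6) in E14-Sox2TA/WT, a ratio of 1.43 (1.203 to 1.71). Ccl1, at the end of the row, had 0 and 4 reads.

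A second row of CC ligands on chromosome 11, from 83525778 to 83664683, went from a summed TPM of 8.50 to 114.8, and all 5 of its genes were called at a TPM of at least 1. Ccl6 and Ccl9 are rodent ligands of Ccr1 made by myeloid cells. Ccl6 had 132 reads (TPM 3.80) in E14 and 3261 reads (TPM 84.5) in E14-Sox2TA/WT, 22.3-fold higher (18.7 to 26.7), and this was the largest log2 ratio among the members when 1 is added to each TPM, at 4.16. The noncoding gene E230016K23Rik spans Ccl6 and had 0 and 52 reads, and the sources do not say if reads were assigned by strand. Ccl9 had 108 reads (TPM 1.48) and 1498 reads (TPM 18.5), 12.5-fold higher (10.3 to 15.3). The other inflammatory ligands of the row lay lower. Ccl3 had a TPM of 1.78 in E14 and 3.90 in E14-Sox2TA/WT, Ccl4 of 0.875 and 5.12, and Ccl5 of 0.565 and 2.72. Ccl3 and Ccl4 overlap by 755 bases in the RefSeq models, so their reads could be split between them, and the interval of Ccl3, from 1.46 to 3.37, reached below 2-fold.

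**Figure D2:**
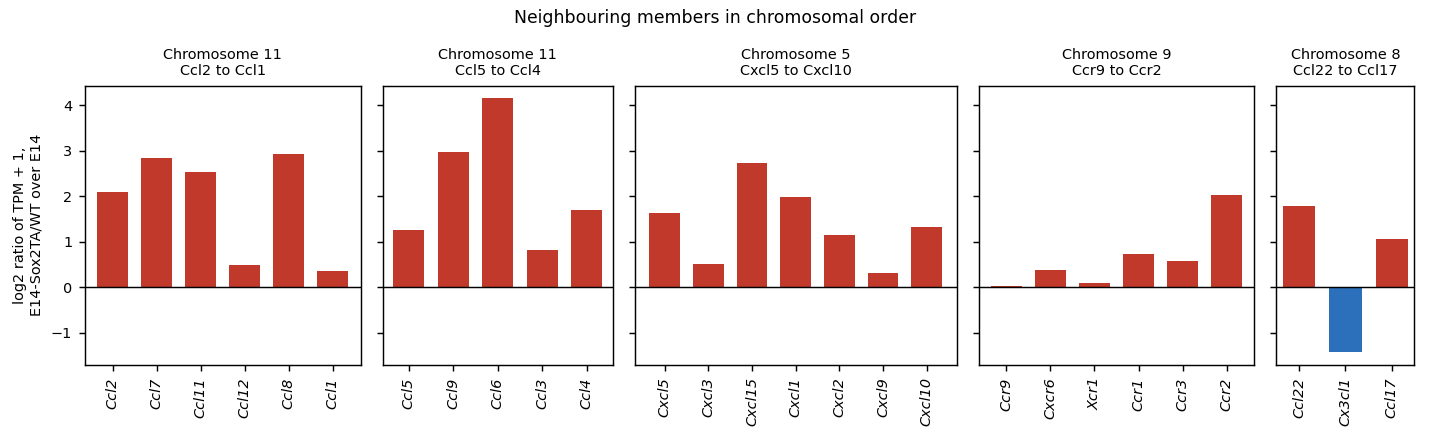
Log2 ratio of TPM, with 1 added in each library, for members that neighbour each other on chromosomes 11, 5, 9 and 8, in the order of their position. Bars above 0 are higher in the E14-Sox2TA/WT library. The highest bar is Ccl6 at 4.16, and Cx3cl1 is the single bar below 0, between Ccl22 and Ccl17.

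Cx3cl1 and Ccl27a were the ligands called lower at a TPM of at least 10. Cx3cl1, the membrane-bound fractalkine that neurons and epithelia display to microglia, had 2972 reads (TPM 39.3) in E14 and 1183 reads (TPM 13.99) in E14-Sox2TA/WT, 2.81-fold lower (2.62 to 3.005). It went from the first to the twelfth rank of the ligands. Its neighbours went the other way. Ccl22 and Ccl17, both ligands of Ccr4 made by dendritic cells and macrophages, had 0 reads in E14 and 120 and 20 reads in E14-Sox2TA/WT. With 3 reads in place of the 0, they were 41.2-fold and 6.87-fold higher. The 926 genes of chromosome 8 at a TPM of at least 1 lay at a median of -0.48 on the log2 scale. Neuron markers moved with Cx3cl1, since 7 of 7 were called lower, against 18.9% of all genes at a TPM of at least 1. Their summed TPM was 3012 in E14 and 470.1 in E14-Sox2TA/WT. The part of either in the level of Cx3cl1 was not tested.

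Ccl27a, a ligand that keratinocytes make for skin-homing T cells, had 1959 reads (TPM 38.3) in E14 and 696 reads (TPM 10.7) in E14-Sox2TA/WT, 3.57-fold lower (3.27 to 3.90). Its copy Ccl27b had 97 reads (TPM 2.92) and 54 reads (TPM 1.43), 2.05-fold lower, with an interval from 1.45 to 2.91 that reached inside 2-fold. It no longer passed the rule in the 5 other scalings of the libraries, which left 2 members called lower. Of the stretches of 50 nt in transcripts of Ccl27b, 61.4% also occur in Ccl27a, so the split between them is uncertain, although both were lower. Of the 6 squamous epithelium markers that reached a TPM of 1, Krt5 and Krt14 were called higher and none lower. Among all genes at that level, 19.3% were called higher and 18.9% lower. The median log2 ratio of the markers was 0.37. Their list had a summed TPM of 196.7 and 379, and Krt15, the most abundant, had a fold of 1.18. Their part in the level of Ccl27a was not tested.

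Most of the remaining CC ligands, though not all, are known from epithelia and lymphoid tissue. Ccl24, an eotaxin, had 53 reads (TPM 1.79) and 240 reads (TPM 7.29), 4.07-fold higher (3.01 to 5.59). Ccl20, the ligand of Ccr6 made by inflamed mucosa, had 0 and 33 reads, 11.3-fold higher with 3 reads in place of the 0. Ccl25, known from thymus and small intestine, was among the few ligands at a like level in both, with 332 and 320 reads, a TPM of 12.2 and 10.3 and a ratio of 0.844 (0.722 to 0.987). A RefSeq gene that overlaps it, LOC108167518, had 544 and 284 reads. The lymph node ligand Ccl21a had 0 and 35 reads and its copy Ccl21b 0 and 18 reads. Of the stretches of 50 nt of Ccl21b, 71.7% also occur in Ccl21a, and these counts cannot be kept apart. Ccl19, which shares the receptor Ccr7 with them, had 0 and 3 reads, and Ccl28 had 12 and 56 reads at a TPM below 1.

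**Figure D3:**
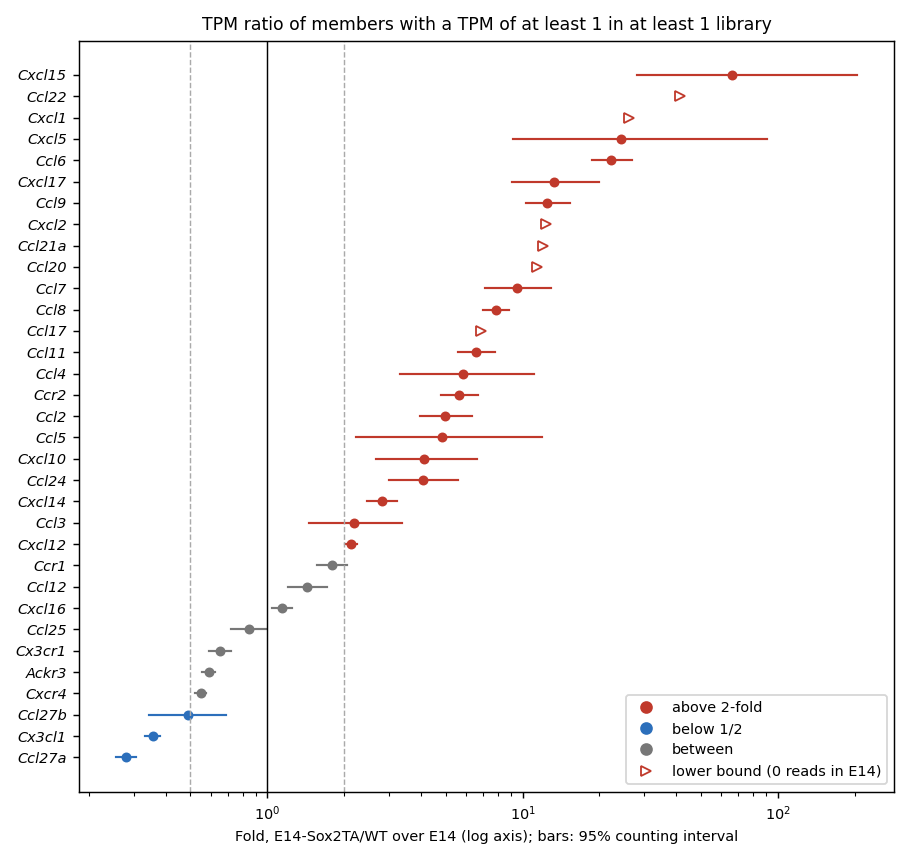
Fold of TPM in the E14-Sox2TA/WT library over the E14 library, on a log axis, with 95% counting intervals, for 33 members with a TPM of at least 1. Open triangles are approximate lower bounds for the 6 members with 0 reads in E14, without the counting error of the E14-Sox2TA/WT count. Dashed lines mark a 2-fold difference in either direction. Ccl27a, Cx3cl1 and Ccl27b lie below the lower line and 23 of the members plotted above the upper one.

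The CXC ligands had a summed TPM of 67.6 in E14 and 156.3 in E14-Sox2TA/WT, 2.31-fold higher, and 8 of the 9 that reached a TPM of 1 were called higher. Cxcl12 was the most abundant in both libraries. This ligand of Cxcr4 and Ackr3 had 1923 reads (TPM 33.3) in E14 and 4882 reads (TPM 70.9) in E14-Sox2TA/WT, 2.13-fold higher (2.02 to 2.25), just past the threshold. Cxcl16, a membrane-bound ligand of Cxcr6 on macrophages, differed little, with a TPM of 24.8 and 28.3 and a ratio of 1.14 (1.05 to 1.24). Cxcl14, an epithelial and stromal ligand, had a TPM of 6.33 and 17.8, 2.81-fold higher (2.45 to 3.22). Cxcl17, found in mucosal epithelium, had 29 reads (TPM 1.58) and 427 reads (TPM 20.9), 13.2-fold higher (9.08 to 19.995). A noncoding gene that overlaps it, 4732471J01Rik, went the other way, from 91 to 38 reads.

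Cxcl1, Cxcl2, Cxcl3 and Cxcl5, which draw neutrophils through Cxcr2, were nearly absent from the E14 library. They lie in a row with Cxcl15, which was not counted among the Cxcr2 ligands here. The row from Cxcl5 to Cxcl2 on chromosome 5, positions 90759298 to 90905938, had 9 reads in E14 and 593 in E14-Sox2TA/WT over its 5 genes. Cxcl15, a ligand known from lung epithelium, accounted for most of them, with 5 reads (TPM 0.0952) and 360 reads (TPM 6.29), 66.0-fold higher (28.0 to 205). Cxcl1 had 0 and 76 reads and Cxcl2 had 0 and 36. With 3 reads in place of the 0, they were 26.1-fold and 12.4-fold higher. Cxcl5 had 4 and 109 reads, a ratio of 24.3 (9.21 to 90.6), and Cxcl3 had 0 and 12. In the E14-Sox2TA/WT library none of these 5 reached a TPM of 10, so they count only under the lower threshold. Cxcl10, a ligand of Cxcr3 that interferons induce, lies inside the gene Art3 and had 25 reads (TPM 0.929) and 114 reads (TPM 3.83), 4.12-fold higher (2.66 to 6.64). Art3 had 145 and 205 reads. Cxcl9, its neighbour, had 19 and 44 reads, and Cxcl13, which draws B cells through Cxcr5, had 7 and 24, both at a TPM below 1.

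Promoters of Cxcl1, Cxcl2 and Cxcl10 are shown because several higher ligands hold the kB motif, the sequence that NF-kB factors bind. These are the 250 bases before the transcript start in RefSeq on GRCm38.p6, read 5′ to 3′ along the gene, with kB matches on either strand in capitals.
Cxcl1: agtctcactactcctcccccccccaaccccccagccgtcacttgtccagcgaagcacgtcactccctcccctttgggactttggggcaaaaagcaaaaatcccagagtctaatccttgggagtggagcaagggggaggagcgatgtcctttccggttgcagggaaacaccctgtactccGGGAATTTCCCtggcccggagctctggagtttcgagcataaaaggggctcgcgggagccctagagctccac
Cxcl2: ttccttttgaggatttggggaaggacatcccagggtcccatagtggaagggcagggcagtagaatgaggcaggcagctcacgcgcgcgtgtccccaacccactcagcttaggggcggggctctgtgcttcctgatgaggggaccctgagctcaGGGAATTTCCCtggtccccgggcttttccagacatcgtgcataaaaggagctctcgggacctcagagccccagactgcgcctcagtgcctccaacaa
Cxcl10: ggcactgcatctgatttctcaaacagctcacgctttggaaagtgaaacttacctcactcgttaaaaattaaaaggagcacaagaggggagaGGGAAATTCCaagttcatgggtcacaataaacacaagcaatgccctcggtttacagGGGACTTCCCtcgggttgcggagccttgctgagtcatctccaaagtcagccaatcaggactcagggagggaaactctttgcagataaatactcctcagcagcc
They lie at chr5:90890995-90891244 and chr5:90903649-90903898 on the plus strand and at chr5:92348890-92349139 on the minus strand. Cxcl1 and Cxcl2 share the letters GGGAATTTCC, beginning at positions -71 and -97 from the start, and their matches on both strands overlap. Cxcl10 holds 2 matches, GGGAAATTCC at position -159 and GGGACTTCCC at position -103. A promoter was found for 42 of the 56 members. The kB motif occurred in 8 of them, or 19.0%, against 4.46% of all 26997 genes with a promoter and 5.55% of the 13336 among them with a TPM of at least 1. Of the 24 members called higher at a TPM of at least 1, 15 had a promoter, and Ccl2, Ccl7 and Ccl11 were among those without. The motif occurred in 5 of these 15, namely Cxcl1, Cxcl2, Cxcl10, Ccl9 and Ccl20. It also occurred in 3 of the other 27 members with a promoter, Cxcl3, Ccr3 and Ccr6. The letters TGANTCA of AP-1 occurred in 2 of the 15 and 4 of the 27, the interferon-stimulated response element in 2 and 1, GAGGAAGT of PU.1 in 0 and 1, and TATAAA in 3 and 10, on either strand. Among all 13336 genes these shares were 5.92%, 3.13%, 2.83% and 9.08%. Ccl8 and Ccl6, the most abundant ligands of the E14-Sox2TA/WT library, had no kB match in this window. A match of letters describes the sequence and does not show binding.

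The receptors had a summed TPM of 176.4 in E14 and 125.3 in E14-Sox2TA/WT. Cxcr4 and Ackr3 made up most of it. Cxcr4, the signaling receptor of Cxcl12, had 4058 reads (TPM 93.1) and 2482 reads (TPM 51.0), 1.83-fold lower (1.74 to 1.92). Ackr3, its atypical partner, had 3105 reads (TPM 62.9) and 2051 reads (TPM 37.0), 1.70-fold lower (1.61 to 1.80). Neither passed the 2-fold rule. By TPM, Cxcl12 lay below both of its receptors in E14 and above both in E14-Sox2TA/WT. Cx3cr1, the receptor of Cx3cl1 on microglia and resident macrophages, had a TPM of 10.7 and 6.98, 1.53-fold lower (1.39 to 1.69).

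Ccr2 and Ccr1, receptors of monocytes, are neighbours on chromosome 9 with Ccr3. Ccr2, which marks inflammatory monocytes, had 173 reads (TPM 1.93) in E14 and 1052 reads (TPM 10.9) in E14-Sox2TA/WT, 5.64-fold higher (4.796 to 6.66), and was the one receptor called at a TPM of at least 10. It had the sixth rank among receptors in E14 and the third in E14-Sox2TA/WT, above Cx3cr1. Ccr1, the receptor of Ccl6 and Ccl9, had a TPM of 4.74 and 8.53, a ratio of 1.80 (1.57 to 2.06) that did not pass the rule.

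The other 13 receptors stayed below a TPM of 1. Ccr7, on mature dendritic cells, had 2 and 48 reads, a ratio of 21.1 (5.52 to 179), and Cxcr2, on neutrophils, had 3 and 28, a ratio of 12.3 (3.79 to 63.1). Ccr3, the eotaxin receptor of eosinophils, had 0 and 44 reads and Ccr4 had 0 and 36. Cxcr3 had 6 and 18, Cxcr6 had 0 and 16, Ccr9 had 4 and 8, Xcr1 had 0 and 8, Cxcr5 had 0 and 7, and Cxcr1 had 0 and 2 reads. Each of these receptors thus had more reads in the E14-Sox2TA/WT library, at counts that allow no more than wide intervals. Cxcr5 overlaps Bcl9l, with 5133 and 1688 reads, and Cxcr6 overlaps Fyco1, with 1316 and 1457 reads, so reads of these receptors could belong to those genes.

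Known pairs of ligand and receptor were read side by side. Pairs that include the member not reported here were left out, so the counts do not cover all pairs of members. Among the 33 pairs kept, ligand and receptor were both called higher in 2, at a TPM of at least 1. These were Ccl2 and Ccl7 with Ccr2. In 11 pairs the ligand was higher and the receptor below a TPM of 1, as for Cxcl1, Cxcl2 and Cxcl5 with Cxcr2 and for Ccl11 and Ccl24 with Ccr3. In 6 pairs the ligand was higher and the receptor not called, as for Cxcl12 with Cxcr4 and Ackr3. Cx3cl1 was called lower and its receptor Cx3cr1 was not called. Ccl27a was lower and its receptor Ccr10 had 0 reads in both libraries. Ccl8 was higher, and Ccr8, the receptor paired with it, also had 0 reads in both.

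Cell type markers give the setting of these values. Their calls are to be read beside all 18558 genes at a TPM of at least 1, of which 19.3% were called higher and 18.9% lower. Markers of neurons, fibroblasts, gut and squamous epithelium had summed levels above 0 in both libraries. So low a bar does not test the labelled tissue, a teratoma. Macrophage markers had a summed TPM of 1067 in E14 and 1794 in E14-Sox2TA/WT, 1.68-fold higher. All 12 had reads in both libraries, and 4 of 12 were called higher under the lower threshold. The TPM of Lyz2 was 457 and 943, that of C1qa 150.2 and 215, and that of Cd14 5.17 and 15.4. The neutrophil markers had a summed TPM of 10.9 and 92.2, of which Ltf, also made by glandular epithelium, gave 62.9 in E14-Sox2TA/WT, and the other 8 had 10.05 and 29.2. Retnlg, Ly6g, Camp and Ngp had 0 reads in E14. T and NK cell markers had a summed TPM of 10.2 and 16.3, with 9 of 14 at 0 reads in E14 and Cd3g, Cd8b1 and Klrb1c at 0 in both. Fibroblast markers had a summed TPM of 612 and 1481, 2.42-fold higher, with 4 of 7 called higher. The 8 gut epithelium markers had 5.40 and 37.0, with all 6 that reached a TPM of 1 called higher and Fabp2 and Cdx2 at 0 reads in E14. Of these 6, Vil1, Fabp1, Fabp2 and Cdx2 reached that level only in E14-Sox2TA/WT, which favours the call. Cdh17, with 66 and 60 reads, and Muc2, with 126 and 174, stayed below it in both libraries. Endothelium markers had 114.9 and 147.8, microglia markers 110.9 and 132, dendritic cell markers 12.2 and 21.1, B and plasma cell markers 10.5 and 13.9, and mast cell and eosinophil markers 25.3 and 21.8, the last held up by Kit with 6 of the 7 at 0 reads in E14. Over the 12 macrophage markers, the log2 ratio with 1 added to each TPM ran from 0.18 to 1.41. The part of each cell type in the chemokine levels was not tested.

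**Figure D4:**
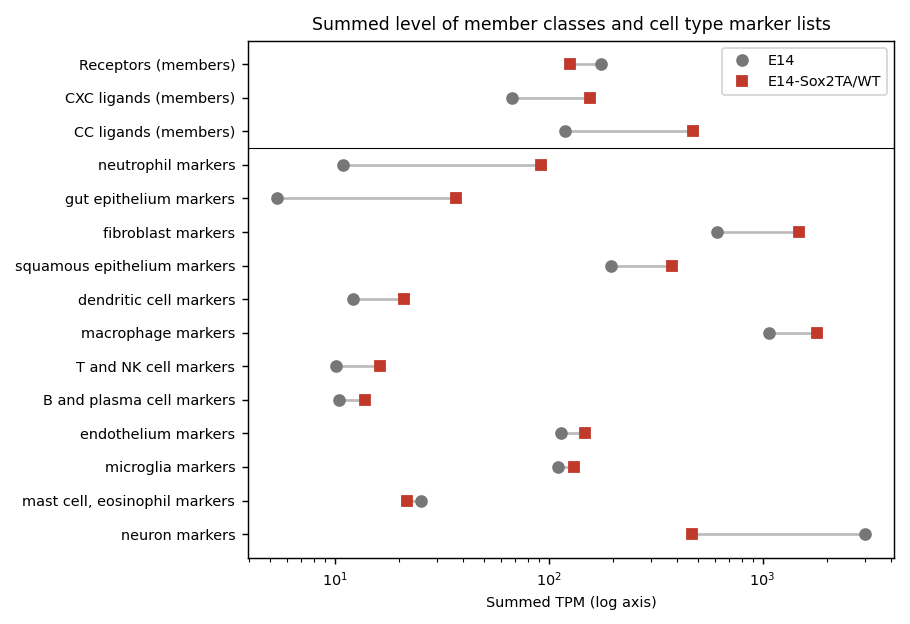
Summed TPM of the member classes (top) and of 12 lists of cell type markers, on a log axis, in E14 (grey circles) and E14-Sox2TA/WT teratomas (red squares). CC ligands go from 119.8 to 471, macrophage markers from 1067 to 1794 and neuron markers from 3012 to 470.1.

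Other genes of the pathway were read from 4 fixed lists. Calls in them are at a TPM of at least 1, where 19.3% of all 18558 genes were called higher and 18.9% lower. Of 8 related genes that the name rule leaves out, 5 of the 6 at a TPM of 1 were called higher. Pf4, a CXC ligand of platelets and macrophages, had a TPM of 11.7 and 40.5, Ppbp, a platelet ligand of Cxcr2, had 3 and 155 reads, and Rarres2, the chemerin that Cmklr1 senses, had a TPM of 3.79 and 43.2. The atypical receptor Ackr4 had a TPM of 8.17 and 5.22. Of 25 genes that carry the signal from the receptors, 3 of 23 were called higher and 2 lower, with a median log2 ratio of 0.07. Those lower were Arrb1, a beta-arrestin, at a TPM of 28.6 and 10.4, and Prkcb, a protein kinase C, at 18.03 and 5.27. Rac2, the Rac GTPase of blood cells, had a TPM of 5.19 and 11.6, while the general Rac1 had 226 and 222. Of 8 genes that process chemokines or their receptors, 3 were called higher and 0 lower. Dpp4, the peptidase that trims the N-terminus of Cxcl12 and other ligands, had 96 reads (TPM 0.750) and 2495 reads (TPM 18.2), 24.3-fold higher. Mmp9 had a TPM of 2.52 and 10.8 and Mmp12 of 0.657 and 8.04. Of 15 cytokines and transcription factors that induce chemokines, 5 of the 11 at a TPM of 1 were called higher and 0 lower. Il1b had a TPM of 0.814 and 6.12, Irf1 of 13.9 and 35.5, and Nfkbiz of 1.57 and 7.54, whereas Nfkb1 had 18.5 and 18.8 and Rela 30.1 and 20.2. Ifng and Il17a had 0 reads in both libraries.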

How the data were processed

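RNA-seq was deposited for teratomas of E14 and of E14-Sox2TA/WT cells, 1 library each. The authors deposited read counts per gene, which are whole numbers, without normalization. The deposited FPKM is relative to gene length and total reads, and the deposited TPM brings these to a common sum. The submitters' processing notes name mm10, bcl2fastq 2.20.0, Trimmomatic, HISAT2 2.1.0 and StringTie 2.1.3b, without their roles, and strand use is not stated. The labels' extraction text names an ESC line as RNA source, whereas tissue labels and paper name teratomas.

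The members and lists were chosen with earlier results of these data known. From the deposited values, TPM ratios, 95% Clopper-Pearson intervals, medians with 1 added to each TPM, and sums were computed, and 3 reads stood in for a count of 0. All members are counted, and those at a TPM of at least 1 are given with their values, except 1 member that is not reported here, and of the lists, genes among the 3 most abundant or the 2 most changed could be named. Some genes outside that rule are named, chosen after their values were seen. Identifiers were matched to RefSeq for 45679 of 45777 genes. Alternatives covered scaling (FPKM, library totals, edgeR's TMM, median-of-ratios), pseudocount, TPM filter and fold. Scripts were tested on simulated data. The tools were R 4.3.3 with edgeR 4.0.16, and Python 3.11.15 with scipy 1.17.1.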

Additional observations from a re-analysis of the deposited data

How the results depend on the processing

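No paired analysis was possible because each group is a single library, and leaving out a library was not possible either. Of 92 alternative values of the main counts, medians and sums, 70 moved by less than their interval or, for counts, by no more than 1.5 times. For medians that interval comes from the order of the member values, and it is wide, from 0.82 to 2.55 for CC ligands. It treats genes as if they were replicates, so the 70 do not measure how stable the medians are. All 34 members with a TPM of at least 1 kept the sign of their log2 ratio under FPKM, read counts scaled in 3 ways and centring. For those with 0 reads in E14, FPKM and scaled counts could not have changed the sign. Leaving out the pseudocount cannot change a sign either, so the kept signs of the 28 with reads in E14 are no check there. The median of all genes with a TPM of at least 1 was -0.06 on TPM and 0.11 on FPKM.

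The 10 members called higher at a TPM of at least 10 became 40 without a TPM filter. Those 40 include members at 0 reads in E14, down to Cxcr1 with 0 and 2 reads. The share of all genes without a filter was not computed, so the 40 cannot be read as a result about the members. The members called lower, 2 at a TPM of at least 10 and 3 at a TPM of at least 1, became 5 and 6 at a fold above 1.5, 1 and 1 above 3, and 1 and 1 without Ccl27a, Ccl27b, Ccl21a, Ccl21b, Ccl3 and Ccl4, which share sequence or overlap with another member, a setting chosen after seeing the data. With 0.1 added to each TPM, the medians were 2.19 for all members, 2.56 for CC ligands and 3.64 for CXC ligands, and with 10 added they were 0.33, 0.33 and 0.37. The median of receptors, 0.09, changed sign to -0.65 at a TPM of at least 10, a setting that keeps Cxcr4, Ackr3, Cx3cr1 and Ccr2. The summed ratio, 2.83 for ligands and 0.710 for receptors on TPM, was 3.25 and 0.815 on FPKM, 2.24 and 0.905 with library totals, 2.05 and 0.828 with TMM and 2.06 and 0.832 with median-of-ratios factors. The cause was not tested beyond the construction of each setting. A count of 0 in E14 allows up to 3 reads, and the intervals leave out how tumours of 1 group vary.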

Other observations

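Cxcl11, a ligand of Cxcr3 and Ackr3 in other strains and species, is listed as a transcribed pseudogene and is not a member. Its reads numbered 0 in E14 and 12 in E14-Sox2TA/WT teratomas. The atypical receptors Ackr1, with 12 and 23 reads, and Ackr2, with 45 and 19 reads, stayed below a TPM of 1 in both libraries.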
